A study of Mus musculus with 6 samples.

Results

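The genes described here belong to the leukemia inhibitory factor (LIF) pathway and comprise the ligand gene Lif, the receptor genes Lifr, Il6st and Osmr, the kinase genes Jak1 and Jak2, the transcription factor gene Stat3 and the target genes Socs3, Pim1 and Pim3. These 10 genes were taken by name from the 23235 entries of the RNA-seq table, and each had 1 entry. RNA was measured in E14Tg2a, a mouse embryonic stem cell (ESC) line, at passages 37 to 40. The 3 ESC samples were pluripotent and grew with LIF. The other 3 samples, called neuronal cells (NCs), came from monolayers of the same line that had no LIF and received 1 μM retinoic acid (RA) for 48 h. Withdrawal of LIF and addition of RA came together in NCs, so that their effects cannot be told apart. Each sample was RNA from 2 plates of 60 mm. The table holds 1 value per gene and condition, in FPKM (fragments scaled to transcript length and to the number of mapped fragments), and no value of a single sample. No SD or test could be computed from these values, and the authors' own test, which lies beside them in the table, was not used. The differences below are therefore given with no replicate check.

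LIF binds a receptor of a LIFR chain and the gp130 chain, which Il6st encodes. The chains carry JAK kinases, which phosphorylate STAT3, and the phosphorylated protein enters the nucleus and activates its target genes. In mouse ESCs this route holds the cells in the pluripotent state, and SOCS3, itself a product of a target gene, inhibits the receptor and its kinases. The FPKM values describe the mRNA of these genes and not the phosphorylation of their proteins.

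In NCs, Socs3, Pim3, Lifr and Stat3 were at least 2-fold lower than in ESCs and Jak2 was at least 2-fold higher. Socs3 differed most, being 9.47-fold lower. RNA of whole cultures was measured, so fewer cells that express a gene and less of its RNA per cell cannot be told apart. Lif, Il6st, Jak1 and Pim1 lay within 2-fold. Osmr stayed near 0 in both conditions. Of the 9 genes with a mean FPKM of at least 1 over both conditions, 4 were thus lower and 1 was higher. By the same rule 9.74% of all 12716 genes were at least 2-fold lower in NCs and 10.9% at least 2-fold higher. The median log2 ratio of NC to ESC was -0.72 over the 9 genes and -0.04 over all 12716 genes. When both conditions were scaled to the same total FPKM, which shifted every log2 ratio by 0.29, Lifr and Stat3 came within 2-fold and 2 of the 9 genes, Socs3 and Pim3, were still lower.

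**Figure D1:**
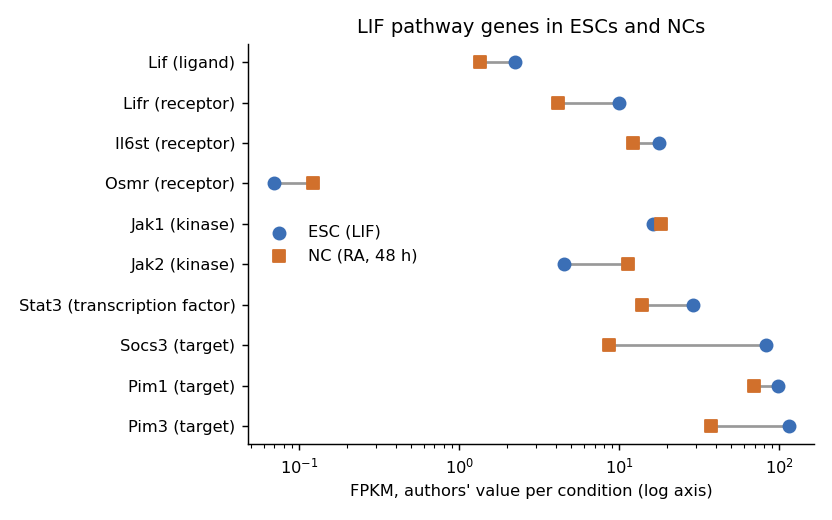
FPKM of the 10 LIF pathway genes on a log axis, as 1 value of the authors per condition, with circles for ESCs and squares for NCs, joined by a line for each gene. The longest line is that of Socs3, from 82.1 to 8.67 FPKM, and the squares of Jak1, Jak2 and Osmr lie to the right of their circles.

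The promoters of the 5 genes that differed at least 2-fold are shown because transcription of these genes starts at their end by the RefSeq annotation. For Socs3, Pim3 and Lifr this start lies inside the gene as GENCODE places it, since GENCODE also has a start farther upstream. The printed windows of Socs3 and Lifr thus lie wholly inside the gene by GENCODE, and that of Pim3 ends inside it. Each is the run of 250 bases before a RefSeq transcription start (GRCm38.p6), read 5′ to 3′ on the strand of the gene. Capitals mark the letters TTCNNNGAA, the core to which STAT dimers bind, and GC boxes, GGGCGG or its reverse complement, to which SP1 family proteins bind. The windows are chr11:117969367-117969616 for Socs3 (minus strand), chr15:88861944-88862193 for Pim3 (plus strand), chr11:100939541-100939790 for Stat3 (minus strand), chr15:7129322-7129571 for Lifr (plus strand, the more 5′ of its RefSeq starts) and chr19:29251553-29251802 for Jak2 (plus strand).
Socs3: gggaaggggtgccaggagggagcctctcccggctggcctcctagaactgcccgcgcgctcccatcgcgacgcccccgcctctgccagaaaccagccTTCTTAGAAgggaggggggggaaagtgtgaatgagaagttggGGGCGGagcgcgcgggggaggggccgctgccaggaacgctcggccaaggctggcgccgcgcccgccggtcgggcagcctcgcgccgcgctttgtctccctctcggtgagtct
Pim3: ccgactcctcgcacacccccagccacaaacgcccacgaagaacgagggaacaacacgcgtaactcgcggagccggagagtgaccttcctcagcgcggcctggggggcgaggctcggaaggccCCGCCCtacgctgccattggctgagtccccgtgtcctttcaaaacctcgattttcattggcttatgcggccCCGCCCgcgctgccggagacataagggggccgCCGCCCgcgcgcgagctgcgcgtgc
Stat3: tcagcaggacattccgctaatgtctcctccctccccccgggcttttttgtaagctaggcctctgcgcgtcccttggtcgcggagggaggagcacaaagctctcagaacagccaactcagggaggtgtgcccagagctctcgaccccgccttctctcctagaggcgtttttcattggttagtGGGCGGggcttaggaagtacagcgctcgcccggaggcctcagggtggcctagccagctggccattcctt
Lifr: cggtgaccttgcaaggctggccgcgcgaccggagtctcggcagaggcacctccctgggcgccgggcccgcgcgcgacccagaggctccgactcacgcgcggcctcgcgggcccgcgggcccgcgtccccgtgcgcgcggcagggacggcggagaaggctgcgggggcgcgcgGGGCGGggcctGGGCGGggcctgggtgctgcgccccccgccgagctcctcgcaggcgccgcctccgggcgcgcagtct
Jak2: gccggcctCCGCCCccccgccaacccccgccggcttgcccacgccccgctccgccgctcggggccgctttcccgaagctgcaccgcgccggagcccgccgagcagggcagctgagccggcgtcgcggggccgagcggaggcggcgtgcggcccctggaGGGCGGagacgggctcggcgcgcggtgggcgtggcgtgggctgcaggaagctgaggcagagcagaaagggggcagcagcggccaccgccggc

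The STAT letters occurred in the promoter window of Socs3, as TTCTTAGAA with its first base at position -154 from the RefSeq start. They were in 1 of the 12 promoter windows of the 10 genes, which run from 250 bases before to 50 after the start. Of all 32851 windows 8.3% held them, a share like that among the 12. Nothing particular to Socs3 or to these genes is therefore read from the match. GC boxes were in 9 of the 12 windows and in 35.7% of all windows, with no overlap between the match of the STAT letters and a GC box. All 5 printed promoters held at least 1 GC box, that of Jak2, which was higher in NCs, as well as those of the genes that were lower. The cAMP response element TGACGTCA was found in 1 of the 12 windows, that of Jak1, against 1.79% of all windows. AGGTCA, the core site of nuclear receptors such as the RA receptors, occurred in the windows of Lifr and Pim3 and in 16.3% of all windows. All motifs were searched on both strands, and those other than the STAT letters were chosen after the FPKM values had been seen. Of the printed bases, 77 in Socs3, 13 in Lifr and 8 in Pim3 also lie in an annotated exon of the same gene.

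Lif encodes the ligand itself. The gene (chromosome 11, 4257557 to 4272514, plus strand) had 2.22 FPKM in ESCs against 1.35 FPKM in NCs, a 1.64-fold lower value in NCs. This is the cells' own transcript, which the LIF added to the medium of ESCs does not enter. Among the 10 genes Lif was the ninth by level in both conditions, so both populations carried ligand mRNA at a low level.

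Of the receptor genes, Lifr differed most. Lifr (chromosome 15, 7090614 to 7197489, plus strand) encodes the chain that gives the receptor its specificity for LIF. It had 10.0 FPKM in ESCs against 4.13 FPKM in NCs, a 2.42-fold lower value. Il6st (chromosome 13, 112464070 to 112510086, plus strand), whose product gp130 is shared by receptors of the interleukin 6 (IL-6) family, had 17.8 FPKM in ESCs against 12.2 FPKM in NCs and was 1.46-fold lower. The Il6st mRNA thus exceeded that of Lifr 1.77 times in ESCs and 2.96 times in NCs. Osmr (chromosome 15, 6813577 to 6874969, minus strand) encodes the chain that pairs with gp130 in the oncostatin M receptor. It had 0.0694 FPKM in ESCs against 0.122 FPKM in NCs, the lowest level of the 10 genes in both conditions. By the estimate of what 1 fragment is worth, these values correspond to about 26.6 and 46.8 fragments. The larger step, found in ESCs, was used for both conditions, and the smaller NC step would give more fragments in NCs. Under this estimate the ratio of 1.76 had an interval of 1.09 to 2.83 (95%), which covers counting error only.

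The receptor chains of other IL-6 family cytokines were read beside these genes as members of the same family. Cntfr encodes the chain that binds ciliary neurotrophic factor (CNTF) and joins LIFR and gp130. It had 4.54 FPKM in ESCs against 65.7 FPKM in NCs, a 14.5-fold higher value. It was the gene with the highest mean level on a list of 5 further receptor chains, of which 2 had a mean FPKM of at least 1. The other of these, Il11ra1, lay within 2-fold. In ESCs the Lifr level was 2.21 times that of Cntfr, whereas in NCs the Cntfr level was 15.9 times that of Lifr. Summed over 8 chains, FPKM was 36.1 in ESCs and 87.3 in NCs, and Cntfr contributed 12.6% of this sum in ESCs and 75.3% in NCs. The share of Lifr was 27.7% in ESCs and 4.73% in NCs, and that of Il6st was 49.2% in ESCs and 14.0% in NCs. Of 9 further ligand genes of the family, 4 had a mean FPKM of at least 1, and these all lay within 2-fold. Cntf had the highest level, with 17.5 FPKM in ESCs against 25.4 FPKM in NCs. Osm, which encodes oncostatin M, had 0.781 FPKM in ESCs against 0.0184 FPKM in NCs and was under the limit on the mean. Il6 and Il27 were listed at 0 in both conditions.

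**Figure D2:**
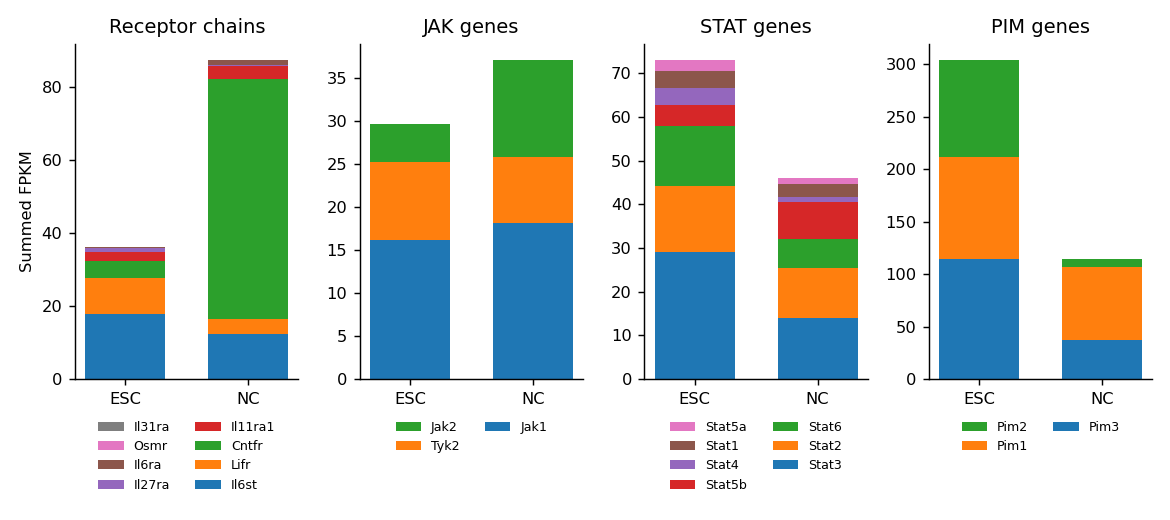
Summed FPKM in ESCs and NCs of 8 receptor chain genes, 3 JAK genes, 7 STAT genes and 3 PIM genes, stacked by gene, with an axis of its own from 0 for each panel. The Cntfr part makes up most of the NC receptor bar of 87.3 FPKM, the Jak2 part is larger in NCs, and the Pim2 part shrinks from 92.3 to 7.66 FPKM.

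Of the JAK genes, Jak2 was higher in NCs and Jak1 lay within 2-fold. Jak1 (chromosome 4, 101152367 to 101265282, minus strand) encodes the kinase on which gp130 signalling chiefly depends. It had 16.2 FPKM in ESCs against 18.1 FPKM in NCs, a ratio of 1.12. Jak2 (chromosome 19, 29251828 to 29313080, plus strand), which is activated at gp130 as well as at other cytokine receptors, had 4.50 FPKM in ESCs against 11.3 FPKM in NCs. It was 2.52-fold higher in NCs, the largest ratio in that direction among the 10 genes. Of all 12716 genes, 7.46% had a higher log2 ratio than Jak2. The Jak1 level was 3.59 times that of Jak2 in ESCs and 1.60 times in NCs. Tyk2, the other JAK gene measured here, had 9.02 FPKM in ESCs against 7.66 FPKM in NCs, and its small difference changed sign with equal totals. In the sum of these 3 JAK genes the share of Jak2 was 15.2% in ESCs and 30.5% in NCs.

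Stat3 (chromosome 11, 100885098 to 100939540, minus strand) had 29.0 FPKM in ESCs against 13.9 FPKM in NCs. This was a 2.09-fold lower value in NCs, just past the 2-fold limit, and a 1.71-fold lower value once both conditions had the same total. The last bases of Stat3 overlap those of Stat5a on the other strand, and 0.384% of the 50-base words of the Stat3 transcript also occur in Stat5a. Stat3 had the highest FPKM of the 7 STAT genes measured in both conditions, with 39.7% of their sum in ESCs and 30.2% in NCs. Stat4, an activator downstream of interleukin 12, was 3.60-fold lower, with 3.95 FPKM in ESCs against 1.10 FPKM in NCs. Stat6, which acts downstream of interleukin 4, was 2.05-fold lower, with 13.8 FPKM in ESCs against 6.73 FPKM in NCs, and lay within 2-fold once both conditions had the same total. Stat2, which acts in the interferon response and had the highest mean level among the other JAK and STAT genes, lay within 2-fold, with 15.2 FPKM in ESCs against 11.5 FPKM in NCs. Stat5b was at 4.73 FPKM in ESCs against 8.42 FPKM in NCs, so that the Stat3 level was 6.15 times that of Stat5b in ESCs and 1.65 times in NCs.

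**Figure D3:**
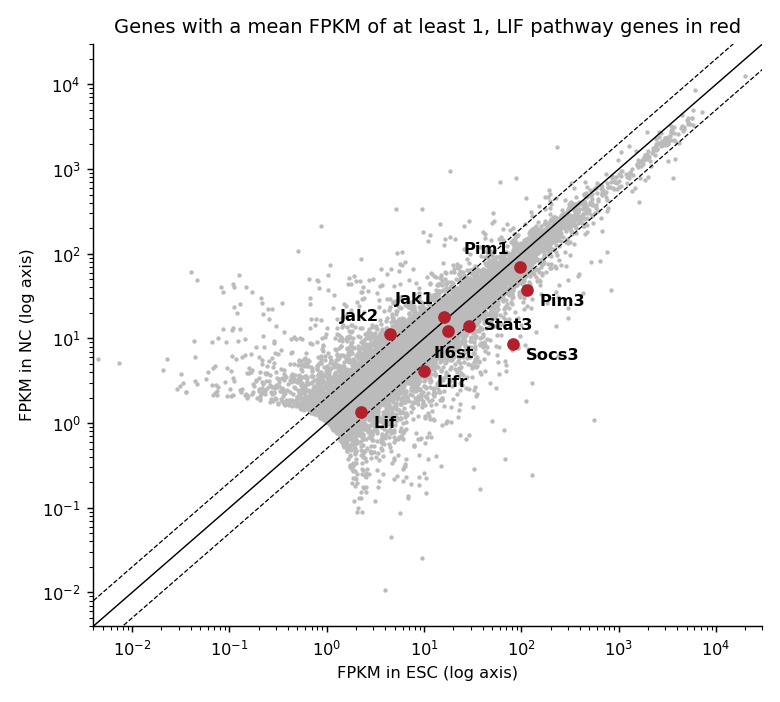
FPKM in NCs against FPKM in ESCs for the 12716 genes with a mean FPKM of at least 1 that were above 0 in both conditions, on log axes, with 9 LIF pathway genes in red. The solid line marks equal values and the dashed lines a 2-fold difference, and Socs3 lies farthest from the solid line among the red points.

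The target genes include the inhibitor of the pathway. Socs3 (chromosome 11, 117966079 to 117970047, minus strand) had 82.1 FPKM in ESCs against 8.67 FPKM in NCs. Its log2 ratio was -3.24, and 0.928% of all 12716 genes had a lower one. With the same total in both conditions it was still 7.72-fold lower. In ESCs the Socs3 level was 2.83 times that of Stat3, and in NCs it was 0.624 times that of Stat3. Among the genes of the SOCS family, Socs3 had the highest level in ESCs, with 53.8% of the summed FPKM of 8 genes. In NCs its share was 12.5%, and Socs6, with 19.7 FPKM, had the highest level.

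The Pim genes encode serine/threonine kinases that promote survival and growth. Pim3 (chromosome 15, 88862186 to 88865726, plus strand) was 3.08-fold lower, with 114 FPKM in ESCs against 37.2 FPKM in NCs. Pim1 (chromosome 17, 29490753 to 29496112, plus strand) was 1.40-fold lower, with 97.4 FPKM in ESCs against 69.6 FPKM in NCs. Gm26885, an antisense gene, overlaps Pim1 at its start and shares 10.6% of the 50-base words of the Pim1 transcript, and the sources used here do not say whether fragments were counted by strand. The third gene of this family, Pim2, differed more than either, with 92.3 FPKM in ESCs against 7.66 FPKM in NCs, a 12.1-fold lower value. The 3 genes had like shares of their sum in ESCs, at 32.0% for Pim1, 30.4% for Pim2 and 37.6% for Pim3. In NCs Pim1 held 60.8% of the sum, and the sum was 2.66-fold lower.

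The order of the 10 genes by level changed in part. In ESCs Pim3, Pim1, Socs3 and Stat3 were the 4 highest. In NCs Pim1, Pim3, Jak1 and Stat3 were, and Socs3 was in place 7. Without values of single samples it cannot be said which neighbours in this order differ beyond the spread between samples.

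Further genes of the pathway were described by list. Of 10 other genes known as targets of LIF and STAT3 in ESCs, 9 had a mean FPKM of at least 1, and of these 6 were at least 2-fold lower in NCs and 2 at least 2-fold higher, where the shares over all genes were 9.74% and 10.9%. The median log2 ratio of these 9 genes was -2.18. The lower genes included Tfcp2l1, a transcription factor gene of the pluripotency network, which was 13.4-fold lower with 32.6 FPKM in ESCs against 2.44 FPKM in NCs. Klf4, which encodes a Krüppel-like factor that also serves in reprogramming, was 8.95-fold lower, with 31.4 FPKM in ESCs against 3.51 FPKM in NCs. Its relative Klf5 was 4.53-fold lower, with 41.3 FPKM in ESCs against 9.10 FPKM in NCs. The size of the difference in Klf4 was thus near that in Socs3. Bcl3, an atypical inhibitor of NF-κB, was 6.32-fold lower, with 23.0 FPKM in ESCs against 3.64 FPKM in NCs. Zfp36, whose product destabilizes mRNAs, was 5.91-fold lower, with 18.4 FPKM in ESCs against 3.12 FPKM in NCs. Junb, which encodes a subunit of AP-1, was 2.72-fold lower, with 20.5 FPKM in ESCs against 7.57 FPKM in NCs.

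Of the other targets, Gbx2 and Myc were higher in NCs. Gbx2, a homeobox gene that also acts at the boundary of midbrain and hindbrain, had 8.90 FPKM in ESCs against 31.2 FPKM in NCs and was 3.50-fold higher. Myc, which encodes a factor that drives growth, was 2.18-fold higher, with 4.76 FPKM in ESCs against 10.3 FPKM in NCs, and within 2-fold with a pseudocount of 1. Mcl1, which encodes a survival protein of the BCL2 family and had the highest mean level on the list, was 1.82-fold lower, with 172 FPKM in ESCs against 94.4 FPKM in NCs. Pramel7 was under the limit on the mean, with 0.461 FPKM in ESCs against 0.555 FPKM in NCs.

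**Figure D4:**
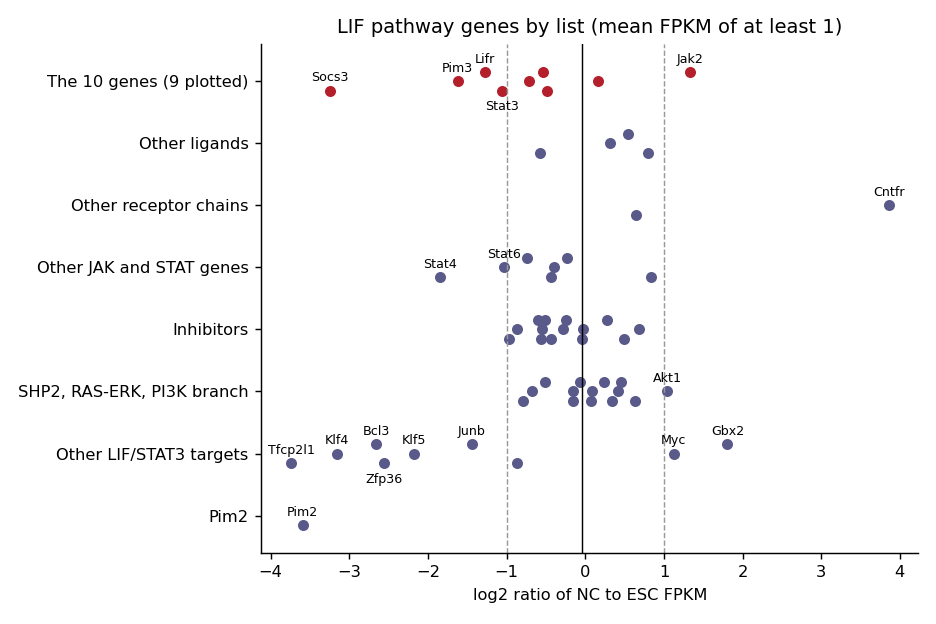
log2 ratio of NC to ESC FPKM for LIF pathway genes with a mean FPKM of at least 1, by list, with 1 point per gene and names for those at or past a 2-fold difference (dashed lines). The solid line is the median of all 12716 genes, -0.04, and the points of the inhibitors all lie between the dashed lines.

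The inhibitors of the pathway other than Socs3 lay within 2-fold. All 14 genes on this list, which holds Socs, Pias and phosphatase genes, had a mean FPKM of at least 1. Their log2 ratios ran from -0.97 for Socs2 to 0.68 for Socs5, and 4 of them changed sign when both conditions were given the same total. Pias2, which encodes an inhibitor of activated STAT proteins and had the highest mean level, had 58.7 FPKM in ESCs against 38.8 FPKM in NCs. The receptor also signals through SHP2, RAS and ERK and through PI3K. Of 14 genes of these branches, 13 lay within 2-fold. Since 9.74% of all genes were at least 2-fold lower and 10.9% at least 2-fold higher, most genes of any kind lay within 2-fold, and nothing particular to these lists is read from the counts. The exception was Akt1, the kinase downstream of PI3K, with 29.5 FPKM in ESCs against 60.6 FPKM in NCs, a 2.06-fold higher value. The median log2 ratio was -0.36 for the inhibitors and 0.08 for the SHP2, ERK and PI3K branches.

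**Figure D5:**
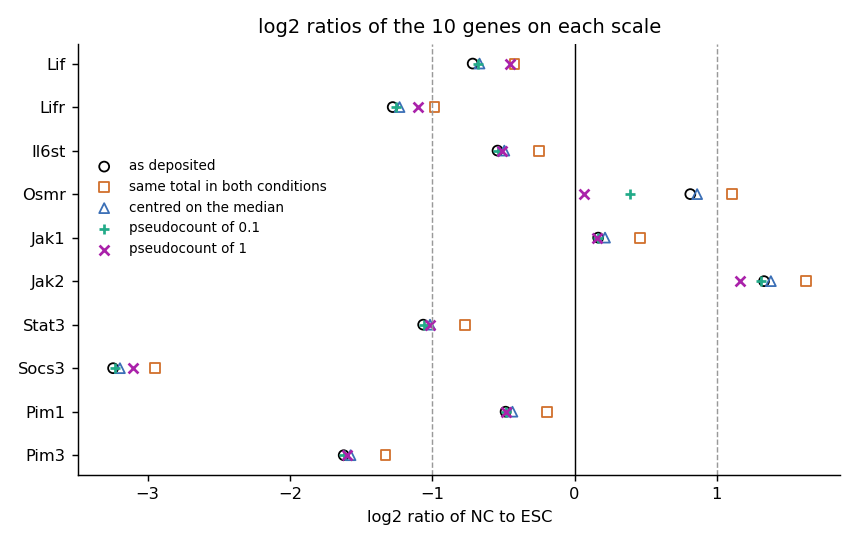
log2 ratio of NC to ESC for the 10 genes on 5 scales: FPKM as deposited, both conditions scaled to the same total, ratios centred on a median, and pseudocounts of 0.1 and 1. The median used for centring was that of genes with at least 1 FPKM in both conditions, -0.05. Each gene keeps its side of the solid line at 0 on all 5 scales, while Lifr and Stat3 move across the dashed line at -1 when the totals are made equal.

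Markers of cell state moved with these genes, and their part in the differences was not tested. All 6 pluripotency markers, among them Pou5f1 and Nanog, were at least 2-fold lower in NCs, with a summed FPKM of 1839 in ESCs and 165 in NCs. All 5 RA response genes were at least 2-fold higher, from 7.36 to 710.4 summed FPKM. Of 5 neural progenitor markers 4 had a mean FPKM of at least 1 and 3 of these were at least 2-fold higher. The neuronal markers were low in the cells labelled NCs. They did not move together. Tubb3 was at least 2-fold lower, with 33.4 FPKM in ESCs against 7.54 FPKM in NCs. Map2 lay within 2-fold, with 3.18 FPKM in ESCs against 2.35 FPKM in NCs. Rbfox3 and Dcx were under the limit on the mean. Rbfox3 had 1.11 FPKM in ESCs against 0.832 FPKM in NCs. Dcx went the other way, with 0.0140 FPKM in ESCs against 0.334 FPKM in NCs. Summed over 6 genes, extraembryonic endoderm markers were at 15.6 FPKM in ESCs against 33.1 FPKM in NCs. Of these, 4 had a mean FPKM of at least 1 and 3 were at least 2-fold higher in NCs. Sox17 was 4.64-fold, Gata6 2.31-fold and Dab2 2.15-fold higher, and Gata4 lay within 2-fold. Ttr and Afp were under the limit on the mean, with Afp at 0.0161 FPKM in ESCs against 0.0871 FPKM in NCs. The 5 fibroblast markers, summed at 19.9 FPKM in ESCs against 42.0 FPKM in NCs, went in both directions. Col1a1, Col1a2 and Col3a1 were at least 2-fold higher, Thy1 was 5.36-fold lower, and S100a4, under the limit on the mean, had 0.469 FPKM in ESCs against 0.140 FPKM in NCs. The 4 trophoblast markers summed to 36.2 FPKM in ESCs, of which Tfap2c made 34.0 FPKM, and to 6.05 FPKM in NCs. The 4 mesoderm markers were each under 1 FPKM in both conditions.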

How the data were processed

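RNA-seq was performed on 3 ESC and 3 NC samples. Per the labels and the methods of the study, the authors aligned reads to mm10 with Bowtie2 2.1.0 and TopHat2 2.0.8, assembled transcripts with Cufflinks 2.0.2 and Cuffmerge, and compared conditions with Cuffdiff. Its version and any use of strand are not given in the sources used here. The methods speak of UCSC genes for the RNA-seq data, without a release. The deposited table holds 1 FPKM value per gene and condition. The NC column, headed FPK, was treated as FPKM too. The deposited fold changes, test statistics, p-values and q-values are the authors' own comparison and were not used.

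Ratios of NC to ESC FPKM were computed with Python 3.11.15, numpy 2.4.6 and pandas 2.3.3, without a pseudocount, for entries above 0 in both conditions with a mean FPKM of at least 1. A gene was called higher or lower at a fold of 2. Figures were drawn with matplotlib 3.10.9. The counting was tested on simulated data. With 1 value per condition no test could be computed.

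The depth of each sample is not given in the sources used here. After the values had been seen, the worth of 1 fragment was estimated. The lowest values of genes with 1 transcript clustered at steps of up to 0.0138 FPKM in 1 kb, assuming fragments of 200 bases. That step was found in ESCs and the step in NCs was 0.00715. The larger one was used for both conditions. Only a set range of low values was searched, so a larger step could not have been found and the fragment numbers are estimates. With this value of 1 fragment, the 9 genes other than Osmr came to an estimated 375 or more fragments per condition. The longest coding transcript was used for each, and a larger step would give lower numbers. This estimate and its intervals cover counting error only.

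All 10 genes were named. From each list, genes past 2-fold and the one with the highest mean were named. A gene that this rule names is not reported here. Other genes named were chosen after their values were seen. The genes and lists were chosen with earlier results of these data known. Hras was found as Hras1, and Jak3 was not analysed here. Gene positions and transcripts are from GENCODE M21 (GRCm38, the same assembly as mm10), and promoters from RefSeq GRCm38.p6, where all 10 genes were matched. Alternatives were other folds, filters, pseudocounts and scales.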

Additional observations from a re-analysis of the deposited data

How the results depend on the processing

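With both conditions scaled to the same total, 2 of the 9 genes instead of 4 were at least 2-fold lower, with a log2 ratio of -0.98 for Lifr and -0.77 for Stat3, and 71.1% instead of 52.7% of all genes past 2-fold were higher in NCs. That scale also gave 1 other ligand gene higher and 1 other JAK or STAT gene in each direction. Of 92 log2 ratios of 23 single genes under alternatives, 85 kept their side of the 2-fold limit and 0 changed sign. A change of sign was not possible for these genes, since 13 of them were included for being past 2-fold. The largest shift was 0.29, each negative ratio among the 23 was larger in size, and a pseudocount cannot reverse a sign. Among the 51 other pathway genes with a mean FPKM of at least 1, 8 changed sign with the same total. Besides Lifr and Stat3, Stat6 came within the limit with the same total, with centring (-0.99) and with a pseudocount of 1 (-0.94), and Myc with a pseudocount of 1 (0.98), while Osmr passed it with the same total (1.11). With a pseudocount of 1, 1 other JAK or STAT gene was lower and 1 other target higher. With centring, 1 other JAK or STAT gene was lower.

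Without a filter, 2947 of all genes were higher and 2403 lower, 3 other ligand genes were lower, and 3 other receptor chains were higher and 1 lower. At a mean FPKM of at least 5, 613 of all genes were higher and 713 lower, and 1 other JAK or STAT gene was lower. At a fold of 1.5, 2434 of all genes were higher and 2369 lower, with 1 ligand, 2 receptor chains, 1 JAK or STAT gene, 1 inhibitor and 2 genes of the SHP2, ERK and PI3K branches higher, and 3 inhibitors and 2 genes of those branches lower. At a fold of 4, 500 of all genes were higher and 395 lower, with 1 of the 9 genes lower (Socs3) and 0 higher, and 0 other JAK or STAT genes lower, 0 genes of the branches higher and 0 other targets higher. These counts follow from the limits themselves. No paired analysis was possible because the table holds no values of single replicates, and for the same reason no replicate could be left out. Depth limits Osmr most.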
